A study of Mus musculus with 8 samples.

Results

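Replication-dependent histone genes were followed in fluorescent cells sorted from the cochlear nucleus, the first auditory relay of the hindbrain, in mouse embryos with and without conditional alleles of the hindbrain patterning factors Hoxa2 and Hoxb2. The genes were all those in the count table whose symbol begins with Hist1h, Hist2h, Hist3h or Hist4h. This rule used names only, but it was chosen with earlier results of these data known. They numbered 62 of the 39017 genes in the table: 6 linker H1 genes, 20 H2A, 16 H2B, 7 H3 and 13 H4 genes. Of the 70 such genes in the GENCODE M21 annotation, the other 8 were not analysed here.

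All embryos were C57BL/6 at E18.5 and carried Math1::Cre with Rosa tdTomato, so that cells with a history of Math1 (Atoh1) expression became fluorescent. The 4 wild type libraries carried no further allele in their titles. The 4 mutant libraries are titled Hoxa2+/fl; Hoxb2fl/fl, whereas the design text of the series gives the Hoxa2 allele as homozygous too. Each library held 30000 sorted cells from 3 pooled littermates, and each came from a different mother. Libraries are named here by group and by the running number in their column heading: mutant 1 to 4 and wild type 5 to 8.

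Replication-dependent histones package newly made DNA, and their genes are transcribed chiefly in S phase. Their messages normally end just after a short 3′ stem-loop, which the protein Slbp binds, and carry no poly-A tail. Some of these genes also give longer polyadenylated messages, which are known from cells that have left the cycle, and the replacement histones (such as H3f3b and H2afz) are made at all stages from ordinary polyadenylated messages. The libraries were primed with a mixture of poly-A and random primers, so messages of either kind could be read.

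The stem-loop was read from the annotated transcripts of GENCODE M21 (mm10). Of the 62 genes, 39 held, after the stop codon and on the transcript's own strand, a match with at most 3 mismatches to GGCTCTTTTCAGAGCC, the commonest hairpin with 6-base arms and a 4-base loop at that place in annotated histone genes. No match means only that these letters are not in the annotated sequence. The sites below belong to genes that carried many of the counts of their type and are shown to compare the loop between types. Capitals mark the 16 bases of the stem-loop.
Hist1h1e, H1, chr13:23621777-23621802, minus strand: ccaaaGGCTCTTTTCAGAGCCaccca
Hist3h2a, H2A, chr11:58955167-58955192, plus strand: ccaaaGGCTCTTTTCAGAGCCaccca
Hist3h2ba, H2B, chr11:58949344-58949369, plus strand: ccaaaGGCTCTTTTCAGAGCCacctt
Hist2h3c1, H3, chr3:96247322-96247347, plus strand: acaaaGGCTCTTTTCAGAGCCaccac
Hist1h4d, H4, chr13:23581945-23581970, plus strand: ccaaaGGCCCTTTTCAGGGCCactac
Hist4h4, H4, chr6:136803993-136804018, minus strand: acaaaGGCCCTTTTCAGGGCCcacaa
Hist2h4, H4, chr3:96262934-96262959, minus strand: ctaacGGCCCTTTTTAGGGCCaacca
The form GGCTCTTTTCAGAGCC stood without mismatch in 26 of the 70 annotated histone genes, none of them of type H4. The hairpin next in frequency, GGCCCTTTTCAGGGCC, stood in 7 histone genes, all of type H4. Among the 55380 other annotated genes, 3 held the first form in their transcripts (0.00542%) and 0 held the second. Of those 3, Gm20634 overlaps Hist2h3c1 and Trim17 overlaps Hist3h2a. The remaining gene is H2bfm, named as an H2B gene but outside the symbol rule used here.

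Annotated transcripts often ran on past the loop. Among the 21 genes that passed the filter on low counts, 14 held a stem-loop and 13 were annotated for at least 150 bases beyond it. Among the 41 genes that did not pass, 25 held a stem-loop and 5 were annotated that far. The annotated stretch beyond the loop was 2445 bases in Hist4h4, 1643 in Hist3h2a, 1257 in Hist2h4 and 1153 in Hist1h1e, against 46 in Hist1h4h. The gene length in the deposited count table was shorter than the annotated transcript for Hist1h1e (748 against 1930 bases) and Hist1h4d (393 against 1138). It was near the annotation for Hist3h2a (1990 against 2146), Hist2h4 (1608 against 1630) and Hist4h4 (2879 against 2863). For Hist1h1e and Hist1h4d most of the annotated stretch beyond the loop may thus lie outside the counted bases. Counts per gene do not show whether reads came from before or after the loop.

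Total counts per library ranged from 24789043 to 51118195, and the histone genes took between 0.0148% and 0.0301% of them. Levels are given as CPM, counts relative to the library's total, scaled by the trimmed mean of M-values (TMM). Hoxb2 fell from 40.1 ± 4.41 to 5.02 ± 1.49 CPM (SD, n = 4 each), a log2 fold change of -3.00 (approximate SE 0.199, edgeR adjusted p = 3.76e-05). Hoxa2 had a log2 fold change of -0.70 (approximate SE 0.401, edgeR adjusted p = 0.506), with mutant 2 at 48.0 CPM inside the wild type range. Which exons the floxed alleles lose is not given in the labels. Markers of postmitotic neurons such as Tubb3 and Dcx were abundant, with 4490 to 6850 CPM summed over 8 genes in each library. For Atoh1 itself the wild type mean was 90.0 ± 45.2 CPM and the mutant mean 61.5 ± 49.2 CPM (SD, n = 4 each).

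Few of the 62 genes carried most of the signal. The 8 genes with most counts held 88.0% of all histone counts, 9 genes had more than 1000 counts over the 8 libraries together, 42 had fewer than 100, and 9 had 0 in every library. A count of 0 allows a level of up to 0.0587 CPM in the deepest library and 0.121 CPM in the shallowest. This takes 3 counts as the limit and covers counting error only. All 9 genes lie among those with near-identical copies described below, so the limit does not cover reads that match several genes. The testis histones Hist1h1t, Hist1h2aa and Hist1h2ba had 22, 16 and 2 counts in all. Per kilobase of the gene length in the deposited table, and averaged over all libraries, the highest levels were those of the linker histone Hist1h1e at 71.2 CPM per kb and the H2B gene Hist3h2ba at 43.1. They were followed by Hist1h1b at 21.9, the H2A gene Hist3h2a at 20.4, the H4 genes Hist1h4d at 20.3 and Hist2h4 at 15.2, and the annotated processed H2A pseudogene Hist1h2al at 7.34. On the same scale all 62 genes together reached 230 CPM per kb and the 11 replacement histones 897, led by H3f3b at 418. The total of the 62 leaves out the annotated histone genes not analysed here. It also misses any reads matching several genes that were not counted. The length in the table can differ from the annotated transcript, as for Hist1h4d with 393 against 1138 bases, and this moves a level per kilobase but no comparison between libraries.

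**Figure D1:**
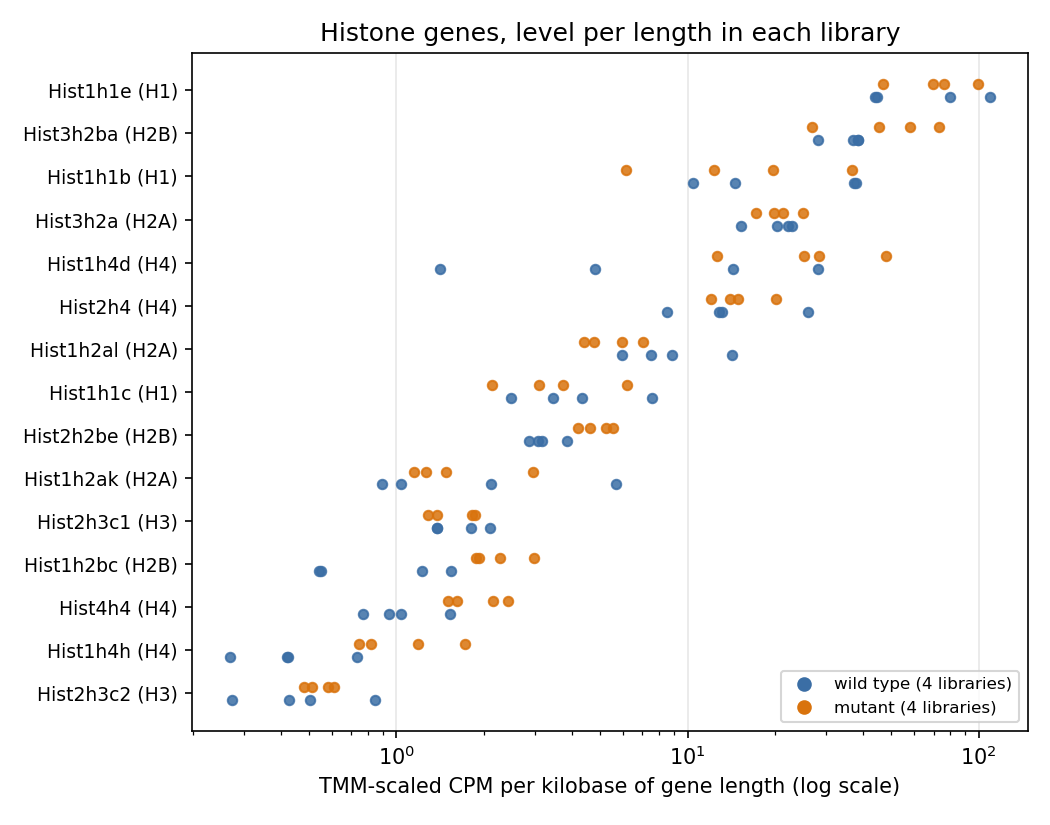
Level per kilobase of gene length (TMM-scaled CPM per kb, log axis) of the 15 named histone genes, 1 point per library, wild type in blue and mutant in orange. Hist1h1e and Hist3h2ba lie highest, and mutant and wild type points separate fully for Hist2h2be, Hist1h2bc and Hist1h4h.

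Genes with near-identical copies had few or no counts. For each gene, the share of its 50-base words found at no other annotated locus was computed from the GENCODE M21 transcripts. Of the 13 genes with at most 15% such words, 9 were at 0 and the highest, Hist1h2ai, had 68 counts over all libraries. The median was 30 counts in the 16 genes with over 15% to 50%, 41.5 in the 18 with over 50% to 80%, and 1202 in the 15 with over 80%. How reads matching several genes were counted is not given in the sources used here, so low counts of such genes cannot be told apart from low expression. Hist1h2al, with 32.4%, and Hist1h2ak, with 47.7%, are uncertain for this reason, as are Hist2h3c1 with 65.3% and Hist2h3c2 with 36.5%. The same limit applies to Hist1h4h with 54.2% and Hist1h2bc with 69.4%, whose groups separated on TMM-scaled CPM, and to Hist3h2ba with 77.9%. Hist2h3c1 and the overlapping gene Gm20634 had identical counts in all 8 libraries, from 64 to 128. Hist3h2a overlaps Trim17, and Hist1h1e overlaps Hist1h2be, with counts that differed in every library.

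**Figure D2:**
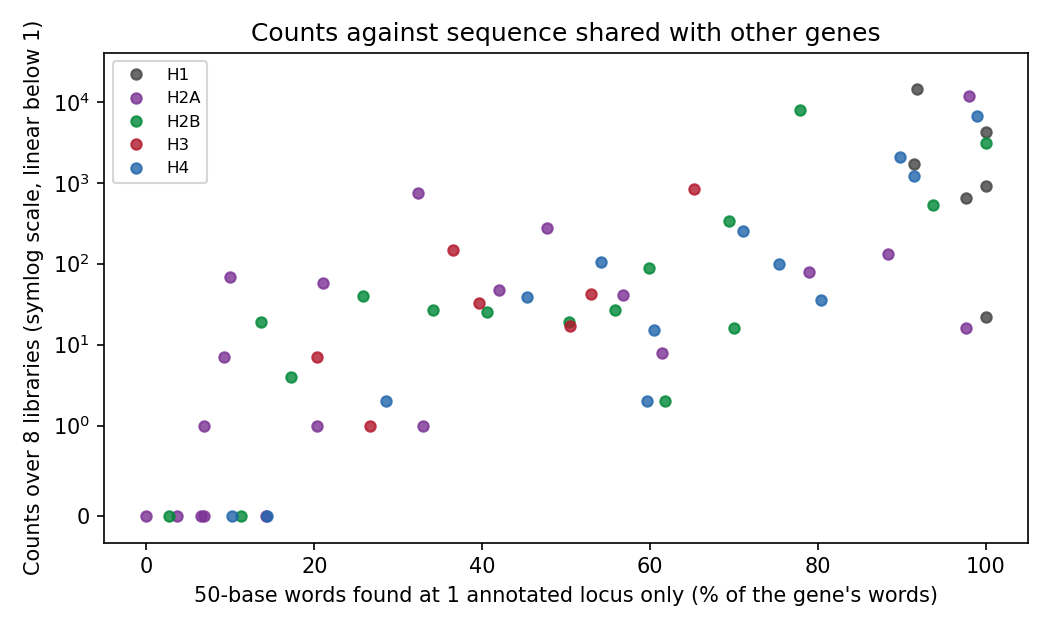
Counts summed over the 8 libraries (vertical, symmetric log axis that is linear below 1) against the percent of a gene's 50-base words found at 1 annotated locus (horizontal), 1 point per histone gene, coloured by type. The 9 genes at 0 all lie at or below 15%, and 8 of the 9 genes with over 1000 counts lie above 80%.

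No histone gene passed an adjusted p of 0.05 between mutant and wild type libraries by edgeR's quasi-likelihood test. The count was 0 of 21, where 0.359% of all 19494 tested genes passed in either direction. At an unadjusted p below 0.05, 5 histone genes were higher in mutant libraries (7.22% of all genes) and 1 was lower (5.29% of all genes). On TMM-scaled CPM the groups did not overlap in 3 of the 21, all higher in mutant libraries (3.23% of all genes). In 0 of the 21 the mutant libraries lay wholly below (2.94% of all genes). The median log2 fold change was 0.07 over the 21 genes and -0.01 over all genes, with 13 of the 21 positive (48.4% of all genes) and 8 negative. DESeq2 passed 2 histone genes, Hist2h2be and Hist4h4 (2.66% of all genes it tested), and limma-voom passed 0 (0.354%). In bulk samples such as these, fewer cells of a type and less RNA per cell cannot be told apart.

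**Figure D3:**
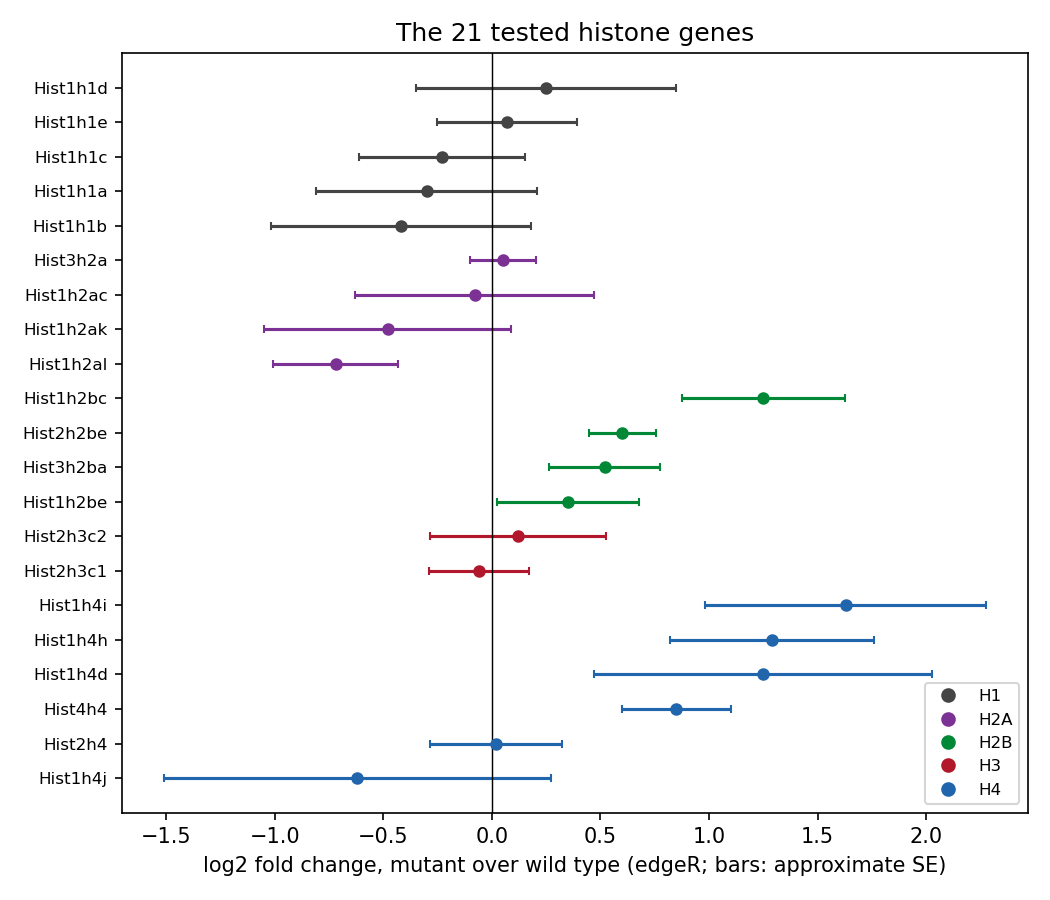
Log2 fold change of mutant over wild type for the 21 tested histone genes (horizontal, edgeR), coloured by type, with bars for the approximate SE. All 4 H2B genes and 5 of the 6 H4 genes lie above 0, with Hist2h4 at 0.02, and no gene passed the adjusted threshold.

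Linker H1 histones bind the DNA between nucleosomes. Their summed level varied 2.9-fold among libraries without separating the groups, at 122, 82.9, 46.0 and 70.1 CPM in mutant 1 to 4 and 101, 133, 47.1 and 53.0 CPM in wild type 5 to 8. Mutant 1, wild type 5 and wild type 6 were high and the others lower, so each group held libraries of either kind. Hist1h1e (ENSMUSG00000051627, chr13:23620629-23622558), the main H1 gene with 64.9% of the summed level, stood at 74.4, 57.0, 35.0 and 52.0 CPM in mutant and 59.6, 81.5, 32.9 and 33.5 CPM in wild type libraries. The groups overlapped almost completely, with a log2 fold change of 0.07 (approximate SE 0.322, edgeR adjusted p = 0.945). Hist1h1b (ENSMUSG00000058773, chr13:21779883-21780625) stood at 27.3, 14.6, 4.58 and 9.18 CPM in mutant and 27.8, 28.2, 7.78 and 10.8 CPM in wild type libraries. The same 3 libraries stood between 27.3 and 28.2 CPM, and the log2 fold change was -0.42 (approximate SE 0.599, edgeR adjusted p = 0.796). Hist1h1c had -0.23 (approximate SE 0.381, edgeR adjusted p = 0.832), from 3.32 CPM in mutant 3 to 11.8 CPM in wild type 6. Hist1h1a and Hist1h1d had log2 fold changes of -0.30 and 0.25, also within their spread. For all 5 tested H1 genes the highest 3 libraries were mutant 1, wild type 5 and wild type 6.

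H2A forms the core of the nucleosome with H2B, and 1 gene gave most of its signal. The summed H2A level was 41.0, 43.1, 53.6 and 46.1 CPM in mutant and 36.5, 56.5, 44.1 and 48.7 CPM in wild type libraries, a log2 ratio of group means of -0.02. Hist3h2a (ENSMUSG00000078851, chr11:58954685-58956830) made up 88.1% of it, at 34.1, 39.3, 49.6 and 42.2 CPM in mutant and 30.3, 45.3, 40.3 and 44.2 CPM in wild type libraries. Its libraries stayed within 1.64-fold of each other, and its log2 fold change was 0.05 (approximate SE 0.153, edgeR adjusted p = 0.924). Hist1h2al (chr13:51202727-51203065) was the histone gene lower in mutant libraries at an unadjusted p below 0.05. It stood at 2.65, 2.25, 1.81 and 1.67 CPM in mutant and 3.34, 5.37, 2.26 and 2.83 CPM in wild type libraries. The groups overlapped through wild type 7, and the log2 fold change was -0.72 (approximate SE 0.289, edgeR adjusted p = 0.342). Hist1h2ak had -0.48 (approximate SE 0.570, edgeR adjusted p = 0.745), with wild type 6 highest at 2.92 CPM.

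All 4 tested H2B genes had a positive fold change, none past the adjusted threshold. The summed H2B level was 35.2, 47.3, 64.4 and 50.6 CPM in mutant and 31.1, 36.1, 33.9 and 34.1 CPM in wild type libraries. Wild type libraries lay close together and mutant 2, 3 and 4 above them, whereas mutant 1 lay inside the wild type range, and the log2 ratio of means was 0.55. Hist3h2ba (ENSMUSG00000056895, chr11:58948920-58949533), with 64.5% of the sum, stood at 16.6, 28.3, 45.3 and 36.1 CPM in mutant and 17.5, 23.0, 23.9 and 23.9 CPM in wild type libraries. Mutant 1 was the lowest of all 8 libraries and the other mutant libraries the highest, and the log2 fold change was 0.52 (approximate SE 0.255, edgeR adjusted p = 0.439). Without mutant 1 it was 0.73 with an edgeR adjusted p of 0.0459, in a fit that passed 2.7% of all genes.

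Hist2h2be (ENSMUSG00000068854, chr3:96221119-96223738) had the smallest p of the 21 genes. It stood at 12.1, 13.7, 14.5 and 11 CPM in mutant and 10.1, 8.02, 7.46 and 8.25 CPM in wild type libraries. Every mutant library lay above every wild type library on this TMM-scaled measure. By counts over the library total without TMM scaling, mutant 4 stood at 10.4 CPM and wild type 5 at 10.6 CPM, so the groups overlapped. The log2 fold change was 0.60 (approximate SE 0.155, edgeR adjusted p = 0.145), and DESeq2 gave 0.61 with an adjusted p of 0.0151. Scaling by library size only gave 0.54 (edgeR adjusted p = 0.238). By exact permutation of the library labels on TMM-scaled CPM, two-sided, p was 0.0286, the smallest that 4 against 4 can give. Any gene whose groups do not overlap on that scale gets this value, so it only restates the separation. No stem-loop was found in the annotated transcript of Hist2h2be, and all its 50-base words were at 1 locus. Hist1h2bc (ENSMUSG00000018102, chr13:23684199-23692908) was a gene of low level, at 2.19, 1.42, 1.67 and 1.38 CPM in mutant and 0.899, 1.13, 0.4 and 0.405 CPM in wild type libraries. Its groups did not overlap, with or without TMM scaling, and its log2 fold change was 1.25 (approximate SE 0.376, edgeR adjusted p = 0.225).

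H3 genes had the lowest summed level, between 2.94 and 5.33 CPM in the 8 libraries. Hist2h3c1 stood at 3.31, 2.52, 2.35 and 3.4 CPM in mutant and 3.29, 3.82, 2.52 and 2.51 CPM in wild type libraries. The groups overlapped throughout, with a log2 fold change of -0.06 (approximate SE 0.231, edgeR adjusted p = 0.930). Hist2h3c2 had 0.12 (approximate SE 0.405, edgeR adjusted p = 0.926), with 148 counts in all. Of the 8 annotated genes not analysed here, 5 are of type H3.

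H4 genes had the widest spread as a ratio of the highest to the lowest library (3.29-fold, against 2.9-fold for H1), though not in CPM, with a summed level of 62.7, 40.9, 31.1 and 40.8 CPM in mutant and 29.9, 59.8, 19.0 and 25.3 CPM in wild type libraries. Wild type 6 lay among the mutant libraries, and the log2 ratio of means was 0.39. Hist2h4 (ENSMUSG00000091405, chr3:96261682-96263311) made up 63.1% of the sum, at 32.3, 23.9, 19.4 and 22.5 CPM in mutant and 20.6, 41.7, 13.7 and 21.2 CPM in wild type libraries. Wild type 6 was highest and wild type 7 lowest, and the log2 fold change was 0.02 (approximate SE 0.304, edgeR adjusted p = 0.988). Hist1h4d (ENSMUSG00000061482, chr13:23581598-23582735) stood at 18.9, 11.1, 4.97 and 9.91 CPM in mutant and 5.63, 11, 1.89 and 0.557 CPM in wild type libraries. These values spanned 33.9-fold, with 22 counts in wild type 8 (95% Clopper-Pearson interval 0.344 to 0.832 CPM) and 576 in mutant 1 (17.4 to 20.6 CPM). The log2 fold change was 1.25 (approximate SE 0.778, edgeR adjusted p = 0.537). A fit without mutant 1, wild type 5 and wild type 6 passed 0.849% of all genes. There the log2 fold change was 2.83 with an edgeR adjusted p of 0.0272. Those libraries, chosen with earlier results known, held the highest mutant value of this gene and both wild type values above 1.89 CPM. That p is therefore no independent support for a change.

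Hist4h4 (ENSMUSG00000096010, chr6:136801553-136804415), the only gene of the Hist4 locus, stood at 6.94, 4.33, 4.66 and 6.16 CPM in mutant and 2.21, 4.4, 2.72 and 2.99 CPM in wild type libraries. Mutant 2 and wild type 6 were nearly equal, and the other mutant libraries lay above all wild type libraries. The log2 fold change was 0.85 (approximate SE 0.250, edgeR adjusted p = 0.210), and DESeq2 gave 0.86 with an adjusted p of 0.0404. Hist1h4h, with 104 counts in all, stood at 0.819, 0.354, 0.389 and 0.567 CPM in mutant and 0.128, 0.35, 0.2 and 0.202 CPM in wild type libraries. Its groups separated only by the gap between mutant 2 and wild type 6, where 9 counts stood in each. Without TMM scaling these libraries stood at 0.342 and 0.363 CPM, so the groups overlapped. Its log2 fold change was 1.29 (approximate SE 0.470, edgeR adjusted p = 0.299). Hist1h4i had 1.63 (approximate SE 0.647, edgeR adjusted p = 0.339) and Hist1h4j -0.62 (approximate SE 0.892, edgeR adjusted p = 0.799), each with overlapping groups.

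**Figure D4:**
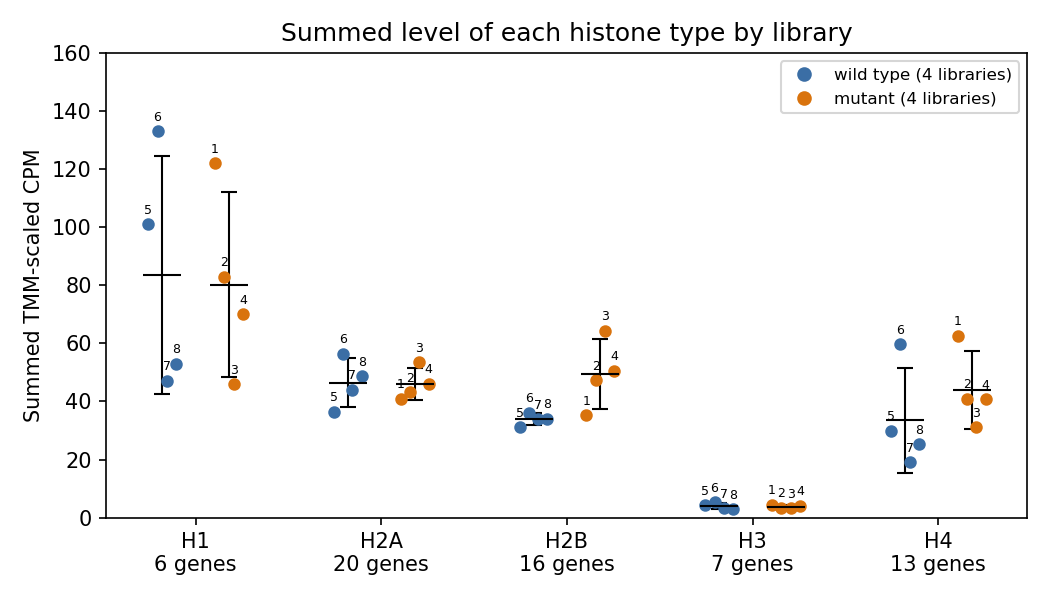
Summed level of each histone type (TMM-scaled CPM) in each library, wild type in blue and mutant in orange with the library number, and lines for the mean and SD of each group of 4. H1 spans 46.0 to 133 CPM with mutant 1, wild type 5 and wild type 6 highest, and H2B lies at 31.1 to 36.1 CPM in wild type and 35.2 to 64.4 CPM in mutant libraries.

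The libraries also differed in genes of the cell cycle. The 20 S phase and cell cycle genes listed, among them the replication helicase subunits Mcm3 to Mcm7 and the proliferation marker Mki67, summed to 1430, 872, 771 and 635 CPM in mutant and 1790, 1840, 738 and 1050 CPM in wild type libraries. Mutant 1, wild type 5 and wild type 6 were the highest 3 libraries for 15 of the 20, for all 5 tested H1 genes, for 2 of 4 H2A, 0 of 4 H2B, 0 of 2 H3 and 1 of 6 H4 genes. The 8 neuronal genes ran the other way in sum, at 4700 CPM in mutant 1, 4490 in wild type 5 and 4600 in wild type 6 and from 6220 to 6850 CPM in the other 5 libraries. Taken singly, Slc17a6 and Rbfox3 did not follow this pattern. The part of these library differences in the histone values was not tested. Without those 3 libraries, 22 of 24 tested histone genes had a positive fold change, with a median of 0.49 against 0.01 over all genes in that fit. The libraries left out were the highest in the H1 genes and 2 of them were wild type, so leaving them out raises the H1 ratio by construction. The H1 sum then had a log2 ratio of 0.41 and the H4 sum 0.76. Wild type 5 and wild type 6 were also the highest wild type libraries in the H4 sum, at 29.9 and 59.8 CPM. Mutant 1 was the highest mutant library in it, at 62.7 CPM. The H4 ratio and the count of positive fold changes therefore depend on the same choice of libraries.

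**Figure D5:**
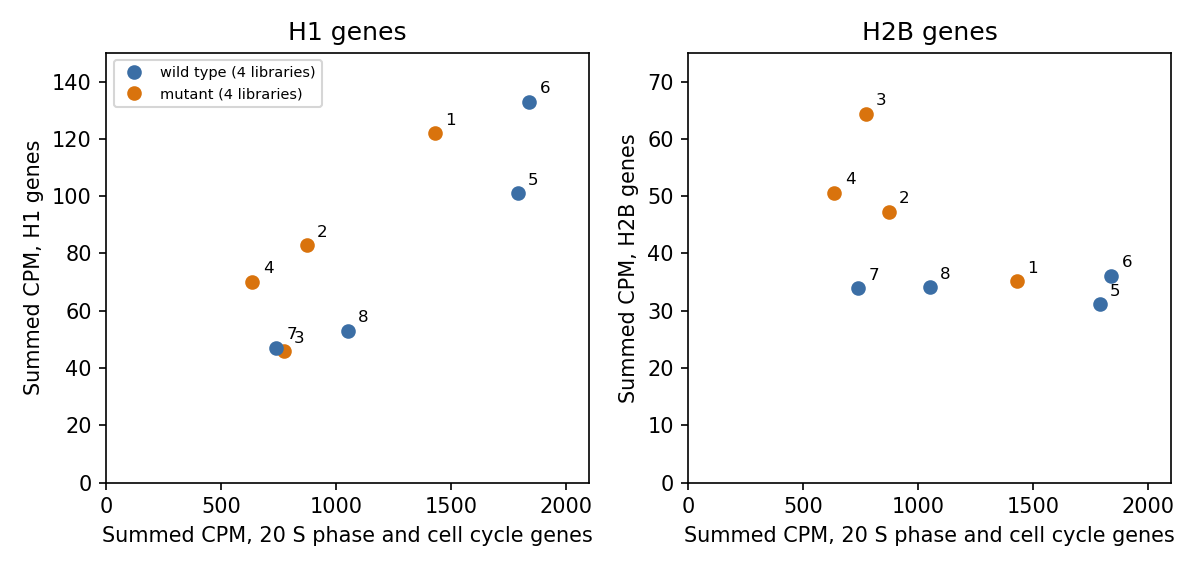
Summed level of the H1 genes (left) and of the H2B genes (right) against the summed level of the 20 S phase and cell cycle genes, in TMM-scaled CPM, 1 point per library with its number. Mutant 1, wild type 5 and wild type 6 lie at the right with the highest H1 sums, whereas the highest H2B sums are those of mutant 2, 3 and 4.

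Of the 20 S phase and cell cycle genes 0 passed the adjusted threshold in edgeR. At an unadjusted p below 0.05, 0 were higher and 3 lower. All 20 fold changes were negative, with a median of -0.51. Over all tested genes 7.22% were higher and 5.29% lower at that p, 48.4% of fold changes were positive and the median was -0.01, and the counts for the lists that follow stand beside the same shares. Mcm4 had -0.48 (approximate SE 0.151, edgeR adjusted p = 0.240) and Mcm3 -0.73 (approximate SE 0.247, edgeR adjusted p = 0.276). Of the 18 histone chaperones, which carry histones to DNA, 0 passed, 0 were higher and 6 lower at an unadjusted p below 0.05, and 4 fold changes were positive and 14 negative with a median of -0.19. Mcm2, a helicase subunit that also binds histones, had -0.71 (edgeR adjusted p = 0.208), and the H3-H4 carrier Nasp -0.42 (edgeR adjusted p = 0.249). Of the 18 measured genes for processing and transcription of histone messages 0 passed, with 0 higher and 2 lower at an unadjusted p below 0.05 and a median of -0.10. Those 2 were Casp8ap2, at -0.27 (edgeR adjusted p = 0.343), and the exonuclease Eri1, which trims histone message ends, at -0.26 (edgeR adjusted p = 0.376). The stem-loop binding protein Slbp had -0.29 (edgeR adjusted p = 0.451). Of the 11 replacement histones 0 passed, 0 had an unadjusted p below 0.05 in either direction, and the median was -0.06. H3f3a had 0.28 (edgeR adjusted p = 0.442) and the linker histone H1f0, known from resting cells, -0.24 (edgeR adjusted p = 0.455).

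RNAs taken to lack a poly-A tail, Malat1 and Neat1 among them, were listed as a rough measure of reading by random primers. Which primers read them was not tested. Of 17 listed, 5 were tested and 0 passed, with 1 higher and 0 lower at an unadjusted p below 0.05 and a median of 0.32. Rpph1, the RNA of RNase P, stood at 166, 134, 83.9 and 237 CPM in mutant and 33.8, 105, 67.8 and 62.2 CPM in wild type libraries. Mutant 3 lay within the wild type range and the log2 fold change was 1.21 (approximate SE 0.385, edgeR adjusted p = 0.276). Rn7sk had 0.48 (approximate SE 0.238, edgeR adjusted p = 0.443), with wild type 5 lowest at 136 CPM. Whether these RNAs moved with the H2B and H4 values was not tested.

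Markers of other cell types were also read. The 8 microglial markers were all detected and summed to 11.1 to 17.6 CPM in mutant and 14.9 to 23.4 CPM in wild type libraries. Csf1r alone gave 9.81 to 15.2 CPM of the mutant and 10.1 to 11.6 CPM of the wild type sums, with a log2 fold change of 0.07 (edgeR adjusted p = 0.889). The other 5 tested were negative, and 3 of the 6 were lower at an unadjusted p below 0.05 (5.29% of all genes). C1qa fell (log2 fold change -3.45, edgeR adjusted p = 0.0115), the 1 of 6 past the adjusted threshold (0.359% of all genes). P2ry12 had -2.03 (edgeR adjusted p = 0.0900) and Cx3cr1 -2.41 (edgeR adjusted p = 0.186). For comparison, all 62 histone genes summed to 147 to 291 CPM, and reached 230 CPM per kb averaged over all libraries. The 8 markers of radial glia and astrocytes summed to 393 to 940 CPM in mutant and 599 to 893 CPM in wild type libraries. Per kilobase these glial markers reached 268 CPM per kb, so gene length made up much of the difference in CPM. Those of the oligodendrocyte lineage summed to 72.2 to 84.9 and 71.2 to 103 CPM, vascular markers to 9.03 to 23.2 and 11.5 to 30.2 CPM and red blood cell markers, 2 of 8 at 0 in every library, to 5.54 to 7.01 and 4.81 to 11.3 CPM. Their part in the histone values was not tested.

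Promoters were compared because the tested H1 genes shared their highest 3 libraries, whereas Hist3h2a and Hist1h4d had other sets. RefSeq promoters (GRCm38.p6) matched 61 of the 70 annotated histone genes. In the 250 bases before the start, on either strand, the TATA box TATAAA stood in 29 of 61 (47.5%, against 13.0% of 27025 promoters) and the CCAAT box in 50 of 61 (82.0%, against 34.5%), with 3 of 12 in H4 promoters. The octamer ATTTGCAT stood in 7 of 17 H2A and 6 of 16 H2B promoters and in 0 of type H1, H3 or H4 (1.61% of all promoters). The H1 motif AAACACA stood in 5 of 6 H1, 2 of 17 H2A and 2 of 16 H2B promoters (6.22% of all promoters). It stood in 0 of type H3 or H4. Hist1h1a lacked it, as did Hist1h2ak, Hist1h2ac and Hist1h4j, which had the same highest 3 libraries as the tested H1 genes. The 150 bases before the start are printed for 4 genes, with these 4 motifs in capitals on either strand.
Hist1h1e, H1, chr13:23622559-23622708, minus strand: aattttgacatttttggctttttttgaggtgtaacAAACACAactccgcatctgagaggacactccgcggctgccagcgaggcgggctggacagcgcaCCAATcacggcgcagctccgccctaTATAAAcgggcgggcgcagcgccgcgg
Hist1h1b, H1, chr13:21780626-21780775, minus strand: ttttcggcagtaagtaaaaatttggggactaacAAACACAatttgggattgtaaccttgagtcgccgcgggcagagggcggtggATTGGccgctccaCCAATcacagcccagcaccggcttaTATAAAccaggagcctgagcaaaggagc
Hist3h2a, H2A, chr11:58954535-58954684, plus strand: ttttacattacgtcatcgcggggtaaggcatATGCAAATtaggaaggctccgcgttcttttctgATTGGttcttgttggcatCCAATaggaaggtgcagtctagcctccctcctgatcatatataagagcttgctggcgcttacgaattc
Hist1h4d, H4, chr13:23581418-23581567, plus strand: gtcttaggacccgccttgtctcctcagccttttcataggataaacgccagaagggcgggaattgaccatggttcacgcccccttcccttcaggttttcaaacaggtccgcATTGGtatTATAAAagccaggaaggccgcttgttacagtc
The windows of Hist1h1e and Hist1h1b hold the H1 motif, the CCAAT box and the TATA box, that of Hist3h2a the octamer and the CCAAT box, and that of Hist1h4d the CCAAT box and the TATA box. A match is a description of letters and not evidence of a factor bound there.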

How the data were processed

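Poly-A and random primed RNA-seq libraries (2 ng RNA, 14 PCR cycles) of 4 mutant and 4 wild type pools were analysed from raw read counts per gene deposited by the authors. Per the submitters' processing notes, mm10 and bcl2fastq 1.8.4 were used. The aligner, counter, strand setting and treatment of reads matching several genes are not given in the sources used here. Counts were tested in edgeR 4.0.16 under R 4.3.3 (TMM, filterByExpr, robust quasi-likelihood F test, 4 against 4, Benjamini-Hochberg over 19494 genes). The scan for hairpins and the other annotation counts used GENCODE M21. SEs are the log2 fold change divided by the root of F. DESeq2 1.42.0 and limma 3.58.1, other filters and scalings, and left-out libraries were alternatives. Scripts were tested on simulated data. Total counts per library were 24789043 to 51118195. No library repeated another. Intervals and limits cover counting error only, since PCR copies were not marked.

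Named genes were, in each type, the 2 highest per kilobase and the 2 with the smallest p, and from each list those past the threshold or else the 2 with the smallest p. The genes, the lists and the removal of 3 libraries together were chosen with earlier results of these data known. The sequence-sharing ranges, the 150-base limit, the highest-3 counts, the motifs and the check of Hoxa2, Hoxb2 and Atoh1 were chosen after counts had been seen. Further genes outside the rule (Slbp, Hist1h1a, Hist1h1d, Hist1h4i, Hist1h4j) were named after their values were seen. The microglial markers Csf1r, P2ry12 and Cx3cr1 were also named outside the rule, since C1qa alone passed in their list. Exact permutation p-values were computed for all 62 histone genes, untested ones included, and not adjusted. Only that of Hist2h2be is given here.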

Additional observations from a re-analysis of the deposited data

Results flagged for a closer look

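Hist3h2ba in wild type 5, at 17.5 CPM, lay far below the other 3 wild type libraries, the nearest of which was at 23.0 CPM by Dixon's criterion for 4 samples. It was 1 of 40 groups of 4 examined, and chance marks about 1 in 20.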

How the results depend on the processing

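DESeq2 passed 2 histone genes and the fit without mutant 1, wild type 5 and wild type 6 passed 1, against 0 in the edgeR fit. Leaving out 1 library at a time gave 0 to 1, the 1 being Hist3h2ba without mutant 1. The median fold change ranged from -0.12 to 0.39 over those fits, and the summed log2 ratios from -0.33 to 0.26 for H1, -0.12 to 0.09 for H2A, 0.39 to 0.68 for H2B, -0.15 to 0.14 for H3 and 0.17 to 0.83 for H4. Of 252 values of 15 named genes under the alternatives, 228 kept direction and side of the threshold, 4 passed it newly and 20 changed sign. 7 genes never changed sign. Scaling by library size only gave -0.05 for Hist2h4 and -0.01 for Hist3h2a. Without the 3 libraries the sign changed for Hist1h1b (0.01), Hist1h1c (0.01), Hist1h2ak (0.44) and Hist2h3c1 (0.14). Leaving out 1 library gave sign changes within -0.57 to 0.15 for Hist1h1c, -0.11 to 0.38 for Hist1h1e, -0.86 to 0.34 for Hist1h2ak, -0.15 to 0.06 for Hist2h3c1, -0.09 to 0.44 for Hist2h3c2, -0.18 to 0.41 for Hist2h4 and -0.07 to 0.13 for Hist3h2a. The cause was not tested. Over all genes, 544 passed without mutant 1 and 26 to 76 without any other 1 library. No paired analysis was possible because the column headings carry a running number and not the replicate numbers of the titles, so the planned replicate block was not run. The 41 untested genes had at most 89 counts each in all, and whether depth or shared sequence set these counts was not tested.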
